A study of Mus musculus with 9 samples.

Results

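The genes described are the centrosome and cilium genes of 3 named families, Cep (centrosomal proteins), Ift (intraflagellar transport) and Bbs (Bardet-Biedl syndrome). They were taken as the protein-coding genes of the GENCODE M21 annotation whose symbols start with Cep, Ift or Bbs followed by a digit, which gave 58 of 21951 protein-coding genes (36 Cep, 14 Ift and 8 Bbs genes). A peak was given to a gene when its midpoint lay in the gene on the same strand, and 81 peaks of the deposited list were placed in these genes, of 19691 placed in protein-coding genes. The peaks come from RIP-seq, the sequencing of RNA recovered with an antibody, here against SAFB1, a nuclear RNA-binding protein. Cells were mouse embryonic stem cells whose strain is given as CAST/B6 Male Rosa26-RMCE, and doxycycline was given for 3 days in every group. SAFB1 antibody was used on wild-type cells (3 libraries: the parent cells and different wild-type clones) and on clones named as SAFB1/2 double knockouts (2 libraries), and IgG on wild-type cells (2 libraries). FLAG antibody was used on 1 double-knockout clone carrying either an eGFP plasmid (1 library) or a full-length SAFB1 plasmid (1 library), and the genotype field of the latter reads WT against its title. The deposited file analysed is a single list of peak positions without values per library. No comparison between antibodies or genotypes was therefore possible, sequencing depth is unknown, and no value below has replicates. Intervals are 95% Wilson intervals for shares and exact Poisson intervals for densities. They cover counting error alone, taking genes or peaks to be independent.

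The centrosome is built around a pair of centrioles, and one of them becomes the basal body from which the primary cilium grows. Cep proteins assemble centrioles, form their appendages and guard the transition zone at the cilium base. Intraflagellar transport carries cargo along the cilium in trains of complexes IFT-A and IFT-B, and the BBSome, a coat of Bbs proteins, moves membrane proteins in and out of the cilium. Many of these proteins are long coiled coils, and mutations in many of these genes cause ciliopathies. SAFB proteins bind RNA rich in purines in the nucleus, where unspliced transcripts are found.

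A SAFB peak was present in most of these genes, usually as 1 or 2 peaks. Of the 58 genes 31 held at least 1 peak (53.4%, interval 40.8 to 65.7), while 26.2% of all protein-coding genes did. At least 2 peaks were found in 17 genes (29.3%, 19.2 to 42.0), against 13.8% of protein-coding genes. The shares of the families had wide intervals. A peak was present in 20 of 36 Cep genes (55.6%, 39.6 to 70.5), in 6 of 14 Ift genes (42.9%, 21.4 to 67.4) and in 5 of 8 Bbs genes (62.5%, 30.6 to 86.3), and these intervals overlap widely. Among the 31 genes, 14 held 1 peak, 9 held 2, 1 held 3, 3 held 4 and 2 held 6, while Cep112 held 10 and Cep128 held 12. These last 2 genes accounted for 22 of the 81 peaks (27.2%) and for 21.3% of the summed length of all 58 genes.

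**Figure D1:**
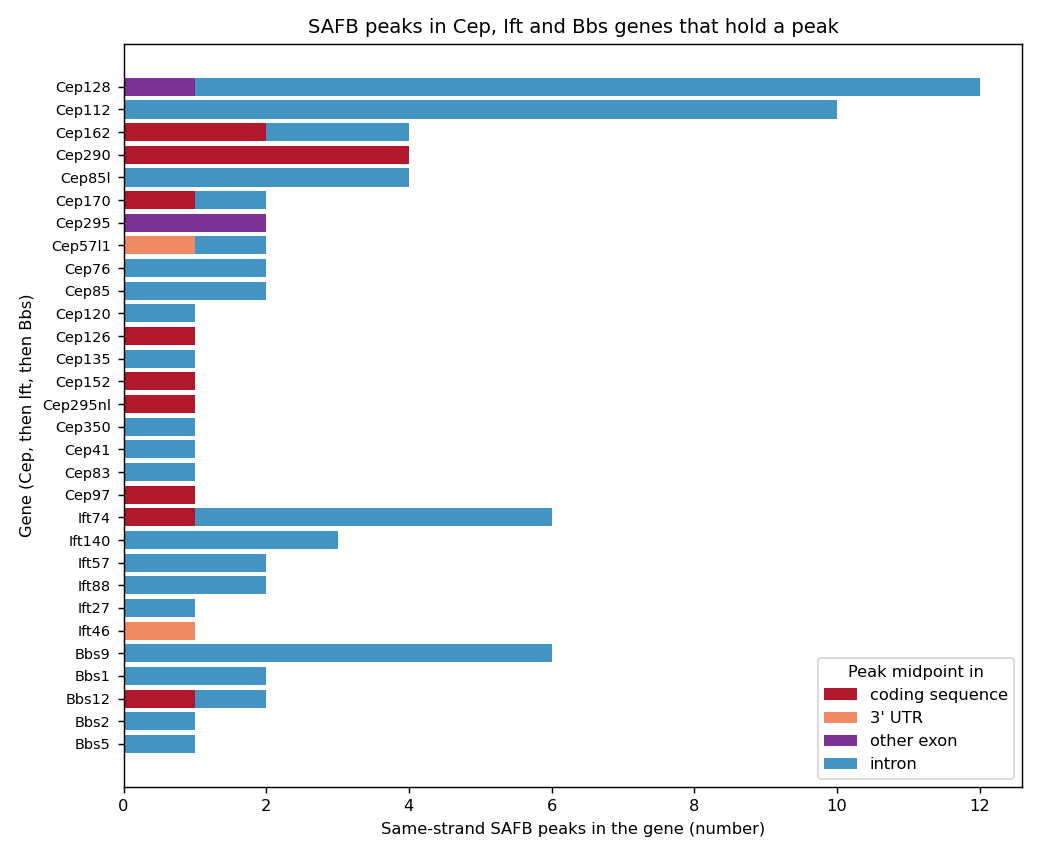
Number of same-strand SAFB peaks (x axis) in 30 Cep, Ift and Bbs genes with a peak (y axis), coloured by where the peak midpoint lay. Cep128 and Cep112 hold 12 and 10 peaks, nearly all in introns, while all 4 peaks of Cep290 lie in coding sequence.

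The genes were longer than most, and longer genes held a peak more often. The median length of the 58 genes was 41.3 kb, against 17.4 kb over all protein-coding genes, and the share of genes with a peak rose with length from 1.46% in the shortest of 20 length bins to 69.9% in the longest. Protein-coding genes of the same length bins gave an expected 22.7 genes with a peak among 58, so the observed 31 was 1.37 times that number (interval 1.04 to 1.68). The same ratio was 1.37 for Cep genes (20 observed, 14.6 expected, interval 0.978 to 1.74), 1.04 for Ift genes (6 and 5.79, interval 0.517 to 1.63) and 2.18 for Bbs genes (5 and 2.30, interval 1.06 to 3.01). One of the 5 Bbs genes is Bbs12, whose peaks both lay in a second gene. Without peaks in more than 1 gene of the same strand, 4 Bbs genes remained against 2.16 expected, a ratio of 1.85 with an interval (0.796 to 2.90) that includes 1. Expression was not matched, since no expression values were used. With all peaks counted, the genes were close to the rest per length. They held 21 peaks per Mb of gene (16.7 to 26.1), against 18.3 over all protein-coding genes, a value inside that interval. Cep genes held 21.5 per Mb (16.1 to 28.0), Ift genes 19.5 (10.9 to 32.1) and Bbs genes 21.1 (10.9 to 36.9). Without Cep128 and Cep112 the density of the remaining 56 genes was 19.4 per Mb (14.8 to 25.1). Counting only peaks no narrower than 596 bases, the 58 genes held 13.5 per Mb and all protein-coding genes 9.92. These values lay further apart in proportion, and the difference was not tested.

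**Figure D2:**
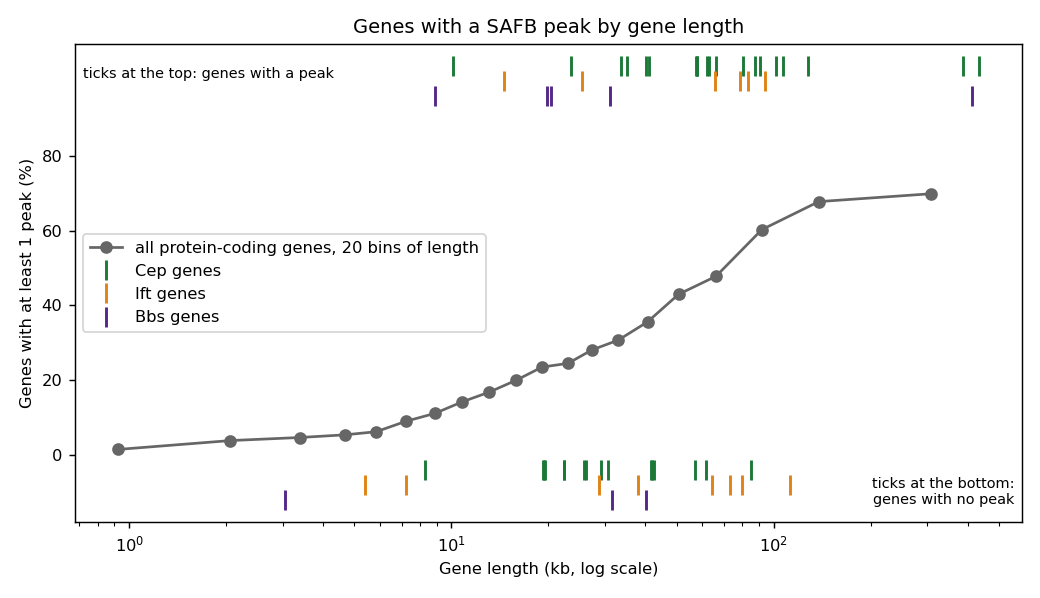
Share of protein-coding genes with at least 1 SAFB peak (y axis, %) in 20 bins of gene length (x axis, kb, log scale), with each Cep, Ift and Bbs gene as a tick at its length, at the top if it held a peak and at the bottom if not. The grey share rises from 1.46% to 69.9%, and 6 of the 7 family genes of 100 kb or more held a peak against 7 of the 20 below 30 kb.

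Of the 81 peaks 13 had their midpoint in coding sequence, in 9 of the 58 genes. Of all 21951 protein-coding genes 1189 held such a peak, a count not matched on gene length. The sequences under 5 of the 13 peaks are printed to show their purine content and their matches to purine hexamers. Every window with a match is among those printed, and the windows not printed held none. These hexamers are AGAAGA with its shifted forms, of which one is GAAGAA while the other is AAGAAG. They were taken from an earlier analysis of this list, which reported them at the top for exonic peaks. Each printed sequence is the coding part of the exon within 75 bases of the peak midpoint, read 5' to 3' on the transcript from GENCODE M21 (mm10), in lower case with every match to a hexamer in capitals. Ift74 had most matches and Cep290 1 in each window shown. Of the 13 coding peaks as wholes, the Cep162 peak shown had the highest purine content and the Bbs12 peak the lowest, but their windows were not the extremes.
Ift74 (chr4:94685635-94685784, plus strand): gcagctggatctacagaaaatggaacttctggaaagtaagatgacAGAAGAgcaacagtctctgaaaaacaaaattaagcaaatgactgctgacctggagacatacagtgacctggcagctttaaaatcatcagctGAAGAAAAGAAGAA
Cep290 (chr10:100495823-100495968, plus strand): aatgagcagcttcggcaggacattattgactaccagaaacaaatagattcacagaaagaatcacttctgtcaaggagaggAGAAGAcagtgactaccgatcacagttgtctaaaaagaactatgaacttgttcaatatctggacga
Cep290 (chr10:100544964-100545113, plus strand): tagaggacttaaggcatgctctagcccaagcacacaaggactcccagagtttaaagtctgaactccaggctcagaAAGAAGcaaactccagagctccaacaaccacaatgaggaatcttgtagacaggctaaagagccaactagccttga
Cep162 (chr9:87212852-87212978, minus strand): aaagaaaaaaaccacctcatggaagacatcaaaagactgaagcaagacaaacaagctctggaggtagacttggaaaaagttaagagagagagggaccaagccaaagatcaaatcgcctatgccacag
Bbs12 (chr3:37320169-37320318, plus strand): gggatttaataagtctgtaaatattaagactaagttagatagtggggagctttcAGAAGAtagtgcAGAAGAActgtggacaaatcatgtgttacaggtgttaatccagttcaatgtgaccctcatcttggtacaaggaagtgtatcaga

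The Ift74 window held 5 matches, some of them overlapping, and 64.7% purines, and the Bbs12 window 3 matches. The Cep162 window, the whole exon of 127 bases, was 68.5% purine without a match, the Bbs12 window was 58.7% purine, and the Cep290 windows were 59.6% and 57.3%. Over the windows of all 13 coding peaks, purines ranged from 44.7% in the last peak of Cep290 (94 bases) to 70.0% in the other coding peak of Cep162. Of the 10 coding windows of full length (150 bases) 3 held a match (30.0%), against 34.3% of such windows at coding peaks of all protein-coding genes and 25.8% of all windows of 150 bases tiled over coding sequences. These are matches of letters on the transcribed strand only, overlapping ones included, and no binding site was measured. The hexamers were picked from exonic peaks of this same list, so a higher share at its coding peaks is no independent evidence of enrichment.

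Both transition zone genes of the Cep family carried 4 peaks each (2 of 2 genes, 1.08 expected from length), in exons only in Cep290 and in exons and introns equally in Cep162. Cep290, a ciliary gate protein mutated in Joubert syndrome and in congenital blindness (ENSMUSG00000019971.10, chromosome 10, 100487558 to 100574840, mm10, plus strand), held 4 peaks of 232, 502, 247 and 428 bases. All 4 midpoints lay in coding exons, although exons make up 13.3% of the gene, and the peaks were spread from 9.55% to 98.0% of its length. Among the 333 protein-coding genes with exactly 4 peaks, 4 genes (1.20%) had all of them in coding sequence, a comparison chosen after the values of Cep290 were seen. The second peak, at 100537401 to 100537902, covered the whole of the longest of its 53 coding exons (456 bases). Cep162, which helps to place the transition zone (chromosome 9, 87189577 to 87255536, minus strand), held 2 coding peaks and 2 intronic ones. One coding peak of 697 bases covered the longest coding exon of the gene (644 bases), while the other, of 1253 bases, was centred on an exon of 127 bases and so lay mainly over introns.

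Genes of centriole duplication and elongation held a peak in 7 of 10 cases, each with 1 or 2 peaks. Genes of their length gave an expected 3.92 (ratio 1.79, interval 1.01 to 2.28). The group is small, and it is one of several role groups added after the data were seen. Cep152, which recruits the duplication kinase PLK4, held 1 peak of 647 bases that took in 640 bases of its coding sequence, in an exon of 651 bases. Cep97, which caps centrioles together with CP110, held 1 peak of 1347 bases over its longest coding exon (775 bases). Cep295, needed for centriole maturation, held 2 peaks of 1345 and 1177 bases near its 3' end, at 98.2% and 86.3% of the gene, and both lay in an exon annotated in a retained-intron transcript alone. Cep76, which limits centriole reduplication, held 2 intronic peaks of 1096 and 1110 bases, and Cep85, a partner of the duplication factor STIL, 2 of 1046 and 1024 bases. Cep135, of the centriole cartwheel, and Cep120, an elongation factor, held 1 intronic peak each, the latter only 79 bases wide. No peak lay in Cep192, the longest Cep gene without one (85.1 kb), in Cep63 or in Cep57.

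Of the 5 genes for centriole appendages 3 held a peak (2.74 expected from length), and Cep128 stood first with 12 peaks. Cep128, of the subdistal appendages (ENSMUSG00000061533.16, chromosome 12, 90998492 to 91384409, minus strand), is 386 kb long, with a density of 31.1 peaks per Mb. Of its peaks 11 were intronic, and 3 of those lay within a single intron of 75342 bases. The exception, 2117 bases wide, lay in an exon of 2904 bases annotated in a processed transcript without coding sequence. Cep170, also subdistal, held 1 peak of 1738 bases wholly inside its longest coding exon (1818 bases) and 1 intronic peak of 74 bases, the narrowest width among the 81 peaks, also found once in Bbs9. Cep83, needed for distal appendages, held 1 intronic peak. Cep89 and Cep164, both distal, held none, nor did the linker genes Cep250 and Cep68.

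The remaining Cep genes with a peak ranged from 1 to 10. Cep112 (ENSMUSG00000020728.17, chromosome 11, 108425192 to 108860615, plus strand) was the longest of the 58 genes at 435 kb and held 10 peaks, all intronic, at 23.0 per Mb. The widest peak of all 81 was among them, with 2654 bases, and 3 of its peaks lay close to the gene start (within 55.7 kb) while the other 7 lay 237 kb or more from it. Cep85l, a centrosomal gene of neuronal migration, held 4 intronic peaks, 3 of them in an intron of 7819 bases. Cep57l1, related to Cep57, held an intronic peak of 77 bases and a peak of 801 bases in the 3' UTR. Cep126 held 1 peak of 2025 bases, of which 2021 were coding bases of its longest coding exon (2110 bases). Cep295nl held 1 peak of 1543 bases over its single coding exon, but the peak also lay in Timp2 on the same strand and cannot be given to either gene alone. Cep41, a ciliary factor of tubulin glutamylation, held a peak 0.596 kb from its start, the closest to a start among the 81. Cep350 held 1 intronic peak.

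Among the genes named Ift, Ift74 led with 6 peaks. Ift74, a core IFT-B subunit that binds tubulin together with Ift81 (ENSMUSG00000028576.12, chromosome 4, 94614491 to 94693229, plus strand), is 78.7 kb long and held 76.2 peaks per Mb. Its peaks fell in 2 clusters, with 4 between 19.3% and 40.7% of the gene and 2 near its end, at 90.4% and 91.8%. One of the latter, 222 bases wide, was coding and covered an exon of 164 bases, and the next, of 430 bases, was centred 62 bases from an exon. Its partner Ift81, of similar length (64.3 kb), held none. Other IFT-B genes named Ift with a peak were Ift88, whose loss removes cilia (2, both intronic, 1593 and 1458 bases), Ift57 (2, both intronic, 1353 and 556 bases), Ift27 (1, intronic) and Ift46 (1, in the 3' UTR, 789 bases). Thus 5 of the 11 IFT-B genes named Ift held a peak, near the 4.11 expected from length (ratio 1.22, interval 0.569 to 1.93). Of the IFT-A genes named Ift, Ift140 held 3 intronic peaks, while Ift122 and Ift43 held none (1 of 3 genes, 1.68 expected). Subunits with other names are counted in the lists described last. The longest Ift gene without a peak was Ift80 (112 kb).

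Of the 6 BBSome genes named Bbs 4 held a peak, with all 10 peaks in introns, where 85.4% of peaks lay over all protein-coding genes. The interval of the BBSome exonic share (0 to 27.8%) includes the 14.6% of all protein-coding genes. The length of these 6 genes gave an expected 2.14 with a peak, a ratio of 1.87 with an interval (0.841 to 2.53) that includes 1. Of the BBSome subunits named otherwise, Bbip1 held 1 exonic peak and Ttc8 held 2 peaks, both intronic. Bbs9 (ENSMUSG00000035919.16, chromosome 9, 22475715 to 22888280, plus strand), a scaffold subunit of 413 kb, held 6 peaks, of which 3 lay in an intron of 113237 bases, and its density of 14.5 per Mb was below that of all protein-coding genes. Bbs1, whose product binds ARL6, is short (19.8 kb) and held 2 peaks of 690 and 915 bases, each centred in an intron shorter than the peak (542 and 509 bases) and each reaching into exons, by 159 and 276 bases. Bbs2 and Bbs5 held 1 intronic peak each, the latter 0.963 kb from the gene start, and Bbs4 and Bbs7 none, Bbs7 being the longest Bbs gene without a peak (40.3 kb). Of the chaperonin-like genes that help the BBSome to assemble, Bbs10 held none and Bbs12 held 2. The wider of these, 2118 bases, covered 94.1% of the coding sequence of Bbs12, which lies in 1 exon. Both also lay in Gm43439 on the same strand, so they cannot be given to Bbs12 alone.

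Genes without a peak in the list were 16 Cep genes (Cep19, Cep44, Cep55, Cep57, Cep63, Cep68, Cep70, Cep72, Cep78, Cep89, Cep95, Cep131, Cep164, Cep170b, Cep192 and Cep250), 8 Ift genes (Ift20, Ift22, Ift43, Ift52, Ift80, Ift81, Ift122 and Ift172) and 3 Bbs genes (Bbs4, Bbs7 and Bbs10). Whether SAFB was absent from these RNAs or the RNAs were too scarce for a peak cannot be told apart from this list. Related pairs differed in their counts. Cep57l1 held 2 peaks and Cep57 none, Cep170 held 2 and Cep170b none, and Cep85l held 4 and Cep85 2. The longer gene of each pair was the one with more peaks, with 91.0 kb against 19.3 kb, 80.4 kb against 26.1 kb and 107 kb against 57.3 kb.

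Introns held most peaks, and over the 58 genes together exons held more than their share of length. Exons of any transcript held 18 of the 81 peaks (22.2%, interval 14.5 to 32.4) and make up 9.85% of the summed gene length, a ratio of 2.26. Over all protein-coding genes the exonic share was 14.6% and the ratio to length 1.62, and 14.6% lay just inside the interval of the 58 genes. The 18 exonic peaks comprised 13 in coding sequence (16.0%, against 7.84% over all protein-coding genes), 2 in 3' UTRs, 0 in 5' UTRs and 3 in exons of transcripts without coding sequence. Cep genes held 15 of them (27.8% of their 54 peaks, 17.6 to 40.9), Ift genes 2 (13.3% of 15, 3.74 to 37.9) and Bbs genes 1 (8.33% of 12, 1.49 to 35.4). These intervals overlap, and the difference between families was not tested. Exons make up 10.8% of Cep, 9.41% of Ift and 6.45% of Bbs gene length. The Ift and Bbs values lie inside the interval of their family. By gene, 13 of 58 had an exonic peak (22.4%, 13.6 to 34.7), against 9.72% of protein-coding genes. Genes of the same length bins gave an expected 7.25, and genes of the same length of merged exons 8.51.

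Split by length, the exonic share stood above that of other genes only in genes of middle length. There the excess rested partly on Cep290. In the 31 genes of 30 to 100 kb, 14 of 37 peaks were exonic (37.8%, 24.1 to 53.9), against 19.6% (18.5 to 20.8) in protein-coding genes of that length. Cep290 supplied 4 of the 14, and without it the share was 30.3% (10 of 33, 17.4 to 47.3), an interval that includes the share of other genes. In the 7 genes of 100 kb or more, 1 of 34 peaks was exonic (2.94%, 0.521 to 14.9), against 6.41%. That share was below the 4.20% of length that exons make up in these 7 genes. In the 20 genes below 30 kb 3 of 10 peaks were exonic (30.0%, 10.8 to 60.3), against 44.9%.

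**Figure D3:**
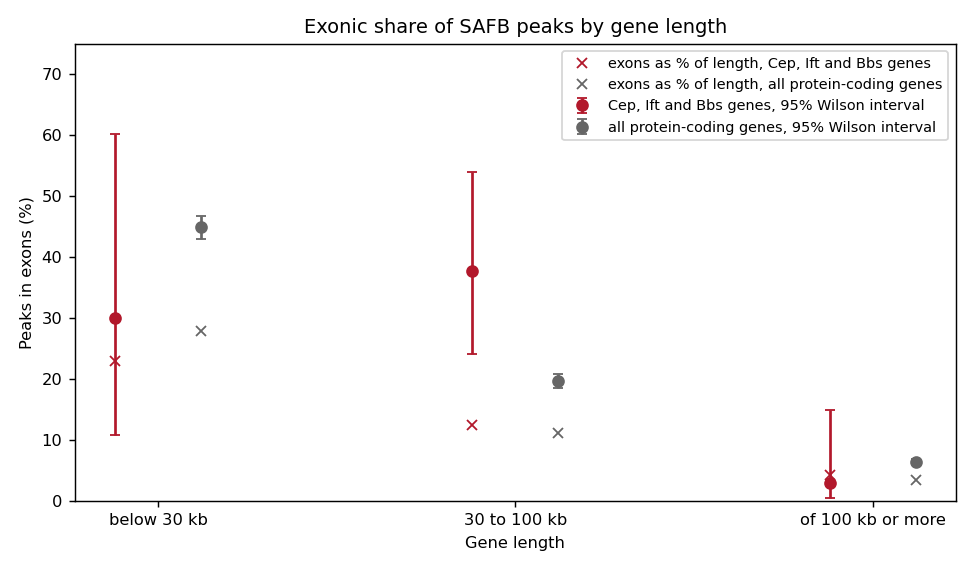
Share of SAFB peaks with midpoint in an exon (y axis, %) by gene length (x axis), for the 58 family genes and for all protein-coding genes, with 95% Wilson intervals as bars and the share of gene length that exons make up as crosses. In genes of 30 to 100 kb the family share is 37.8% against 19.6%. Without Cep290 (not drawn) it is 30.3%, with an interval (17.4 to 47.3) that includes 19.6%. The family intervals below 30 kb and from 100 kb are wide and reach the share of other genes.

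Intronic peaks of the 58 genes sat in shorter introns and nearer to exons than those of other protein-coding genes. The introns holding the 63 intronic peaks had a median length of 13799 bases, against 26554 over all protein-coding genes, and the median distance from midpoint to the nearest exon was 2979 bases, against 5495. Over 10 kb from an exon lay 11 of 63 (17.5%, 10.0 to 28.6), against 36.8%, and within 1 kb 15 of 63 (23.8%, 15.0 to 35.6), against 17.3%. The longest intron of the gene held 18 of the 63 (28.6%), against 42.2%. These distances were not matched on gene length. Peak widths were similar, with a median of 789 bases (quartiles 349 and 1253) against 666 (316 and 1201), and exonic peaks were wider (median 989 bases) than intronic ones (745) here as over all protein-coding genes (771 and 647).

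Peaks lay more often past the middle of these genes, toward the 3' end. Of the 81 peaks 56 had their midpoint there (69.1%, interval 58.4 to 78.1), against 52.9% (52.2 to 53.6) over all protein-coding genes. Past the middle were 40 of 63 intronic peaks (63.5%, 51.1 to 74.3), where 49.0% of intron length lies, against 50.2% of intronic peaks over all protein-coding genes. Of the exonic peaks 16 of 18 did (88.9%, 67.2 to 96.9), where 59.2% of exon length lies, against 68.1%, a value inside that interval. By gene, 21 of the 31 genes had more of their peaks past the middle and 6 had more before it. This count was not made for other protein-coding genes, so whether it differs from theirs was not tested. Cep genes had 40 of 54 past the middle (74.1%, 61.1 to 83.9), Ift genes 8 of 15 (53.3%, 30.1 to 75.2) and Bbs genes 8 of 12 (66.7%, 39.1 to 86.2), with overlapping intervals. The first 10% of the gene held 5 peaks (6.17%, 2.67 to 13.6), against 8.38%, and the last 10% held 14 (17.3%, 10.6 to 26.9), against 10.9%. Without Cep128 and Cep112 the share past the middle was 69.5% (56.9 to 79.7). Among peaks no narrower than the median width of the list (596 bases) it was 63.5%, with an interval (49.9 to 75.2) that includes the value of all protein-coding genes. Peaks of 1 gene are not independent, so these intervals are narrower than the spread between genes would give.

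**Figure D4:**
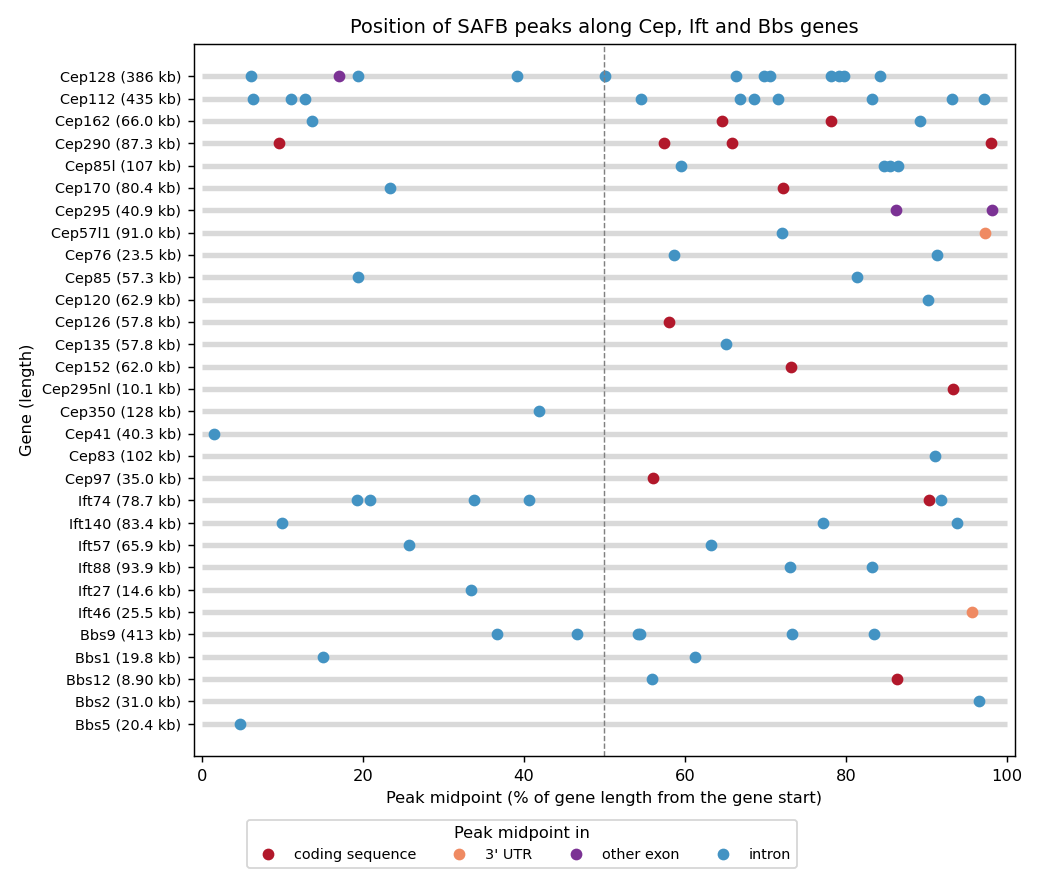
Midpoint of 80 SAFB peaks along their genes (x axis, % of gene length from the gene start) for 30 genes with a peak (y axis, length in brackets), coloured by where the midpoint lay, with a dashed line at the middle of the gene. More points lie right of the line (56 of 80), in long intronic genes such as Cep128 and Cep112 as well as in genes with coding peaks.

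Peaks in coding sequence mostly lay over long exons. The coding exon at the midpoint had a median length of 644 bases over the 13 coding peaks, while the median exon of the same coding sequences had 135. Over the coding peaks of all protein-coding genes the exon at the midpoint had a similar median length, 610.5 bases. Of the 11 coding peaks in transcripts with several coding exons 6 lay in the longest one (54.5%), a share near that of coding peaks in all protein-coding genes (52.1% of 1419). The exceptions were Cep152, whose peak lay in the second longest of 27, the shorter peak exon of Cep162, and the other 3 peaks of Cep290.

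The coding sequences of Cep and Ift genes were rich in purines as a whole, with or without a peak. A and G made up a median of 56.9% of the coding sequence in Cep genes (49.7 to 62.6), 54.6% in Ift genes (51.1 to 61.7) and 52.1% in Bbs genes (50.1 to 54.3), against 51.7% over 21177 protein-coding genes (quartiles 48.9 and 54.2). Above the upper quartile of all genes were 28 of 36 Cep genes, 8 of 14 Ift genes and 1 of 8 Bbs genes, where 25.0% is the share over all genes. The 31 genes with a peak had a median of 55.6% and the 27 without a peak 56.5%. The 9 genes with a coding peak had 58.6%. Of these, 7 (77.8%) lay above the upper quartile, the same share as in all Cep genes (77.8%). Thus Cep83 (62.6%), Cep290 (62.4%) and Ift74 (61.7%) stood next to Cep250 (61.2%), Ift20 (60.9%) and Ift81 (60.8%), which had no peak. Over all protein-coding genes, those with a coding peak had a median of 54.1%, with 48.3% above the upper quartile. The genes of the 5 lists described last had a median of 53.7%, with 43.8% above the upper quartile.

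Within the coding sequences, bases under peaks were not regularly richer in purines than the rest. In 6 of 13 coding peaks the purine share exceeded that of the coding sequence outside the peak, and the median difference was -1.02 percentage points. Over 1452 coding peaks of all protein-coding genes the share exceeded the rest in 59.4% and the median difference was 1.23. The differences ranged from -6.44 in Bbs12, most of whose coding sequence lay under the peak, to 8.53 in the short exon of Cep162, which had 68.5% against 60.0%. In Cep290 the 4 peaks had 60.1%, 58.8%, 62.6% and 58.2%, against 62.4% to 62.7% in the rest. The 3 hexamers occurred 5.22 times per kb of coding sequence in these peaks and 6.98 times per kb outside them, and among single peaks the coding peak of Ift74 had most, 36.6 per kb against 7.95.

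**Figure D5:**
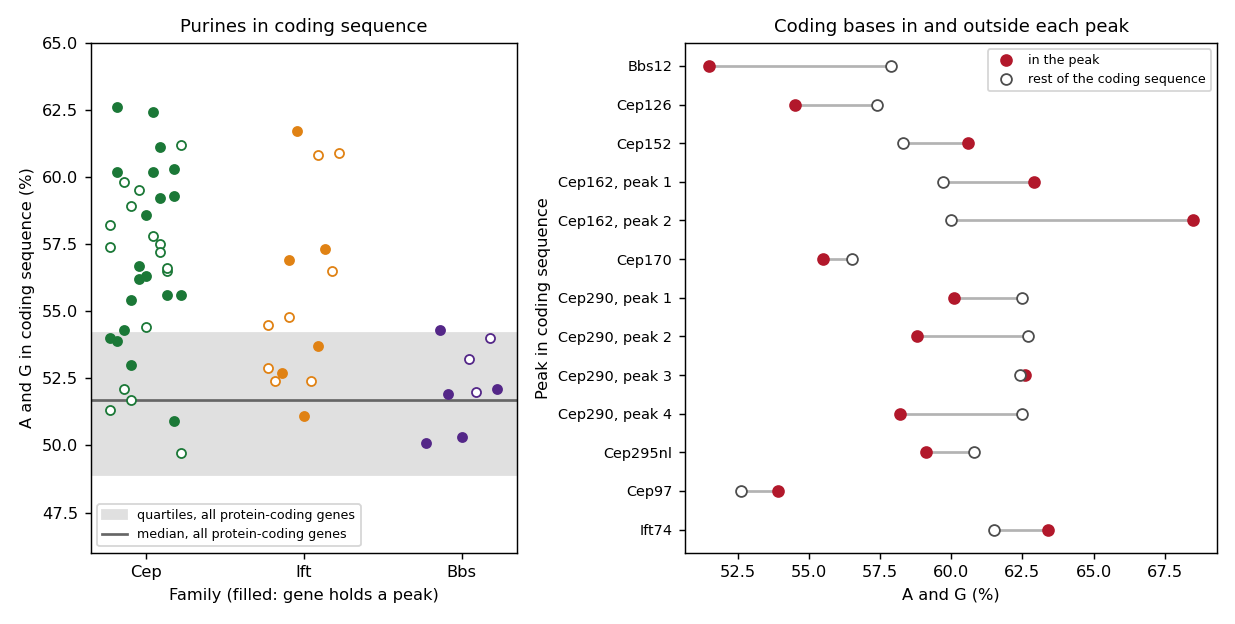
Left, purine content of the coding sequence (y axis, % A and G) of each Cep, Ift and Bbs gene, filled where the gene held a SAFB peak, with the median and quartiles of all protein-coding genes in grey. Right, purine content of coding bases in each of the 13 coding peaks and in the rest of that coding sequence (x axis, %), where 6 of 13 peaks lie above the rest.

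Other centrosome and cilium genes, in 5 lists named by function, held peaks about as often. Together 52 of 90 such genes had a peak (57.8%, 47.5 to 67.5), where genes of the same length bins gave an expected 33.4, a ratio of 1.56 (1.28 to 1.82), and their density was 25.7 peaks per Mb (21.5 to 30.4). Exons held 33 of their 134 peaks (24.6%, 18.1 to 32.6). Centriole and centrosome genes held a peak in 22 of 36 (14.0 expected, ratio interval 1.15 to 1.94), led by Akap9, a scaffold of microtubule nucleation (11 peaks, 5 of them exonic), Ninl and Sclt1 (5 each), and Cdk5rap2 and Poc1b (4 each). Transition zone and ciliopathy genes held one in 14 of 25 (9.42 expected, 0.984 to 1.95), led by Invs, of the inversin compartment of the cilium (11), Iqcb1 and Ofd1 (4 each), and Alms1 and Cc2d2a (3 each). IFT motor genes held one in 4 of 9, near the 3.49 expected (ratio 1.15, 0.486 to 1.89), with 13 peaks in Dync2h1, the heavy chain of the retrograde motor, 3 in Kif3b of the anterograde motor, and 2 each in Kifap3 and Wdr60. Further IFT particle and adaptor genes held one in 4 of 11, near the 3.15 expected (ratio 1.27, 0.529 to 2.26), with 3 in Traf3ip1, 2 each in Cluap1 and Wdr19 and 1 in Tulp3. Further BBSome, chaperonin and regulator genes held one in 8 of 9 (3.34 expected, ratio 2.40, 1.52 to 2.64), with 3 in Sdccag8 and 2 each in Rab3ip, Ttc8 and Wdpcp. In Akap9, Ninl, Cdk5rap2, Iqcb1 and Cluap1, 1 peak each was shared with an overlapping gene.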

How the data were processed

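RNA recovered with SAFB1, IgG or FLAG antibodies from 9 samples was sequenced, and the authors deposited 1 peak list for the series. Its score column, deposited by the authors as 500 in every peak, was not used. Per the submitters' processing notes the build was mm10 and STAR, Subread and featureCounts were used. Peak caller, thresholds and pooling: not given in the sources used here. Starts were read as counted from 0 and printed counted from 1.

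Peaks were placed by midpoint in same-strand genes of GENCODE M21 (55450 genes, assembly GRCm38, which mm10 names), and a peak in more than 1 such gene counted for each. Exons of all transcripts were used, and a midpoint was read as coding sequence before UTR before other exon before intron. Length comparisons used 20 bins with equal numbers of protein-coding genes. Purine content was read from GENCODE M21 transcripts, with 1 transcript per peak (protein-coding first, then most coding bases in the peak) and the longest coding sequence per gene. At least 50 coding bases in a peak and 100 outside it were required. Python 3.11.15, numpy 2.4.6 and scipy 1.17.1 were used, and placement and the length comparison were tested on simulated data.

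The genes and lists were chosen with earlier results of these data known. Named were genes with at least 2 peaks or an exonic peak, the longest gene of each family without a peak, and up to 4 genes with most peaks per list, with ties. Other genes of the 58 are named in groups or by role, and the purine comparison, the position along genes and the role groups were added after the data were seen. Of the list entries, Tctn2 is not annotated as protein-coding and was left out. One gene with a peak is not reported here by name and is not drawn where genes are named, but it stays in all counts.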

Additional observations from a re-analysis of the deposited data

How the results depend on the processing

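Requiring at least 2 peaks lowered the number of genes with a peak from 31 to 17, and keeping peaks no narrower than the median width (596 bases) lowered the density from 21 to 13.5 peaks per Mb, while that of all protein-coding genes went from 18.3 to 9.92. Both settings count fewer peaks. In proportion, the density of the family genes fell less than that of all protein-coding genes, and this difference was not tested. Under the other settings the number of genes ranged from 27 (wide peaks) to 36 (either strand), the exonic share from 18.5% (exons of protein-coding transcripts) to 32.1% (any overlap with an exon), where all protein-coding genes had 11.9% and 21.4%, and the ratio to genes of like length from 1.35 (at least 2 peaks) to 1.55 (wide peaks). The settings without Cep128 and Cep112, those for the position along genes, and the ratios by family without shared peaks were chosen after the data were seen. No paired analysis was possible because the list holds no values per library, and leaving out libraries was likewise not possible. The depth behind a peak is unknown, so a gene without a peak is no evidence of absence.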

Other observations

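Peaks on the strand opposite to the gene were found in 10 of the 58 genes, 16 peaks in all, and 13 of these, in 9 genes, lay in no annotated gene of their own strand. Of all protein-coding genes 10.6% held such a peak, a share not matched on gene length. The median length was 41.3 kb for the 58 genes and 17.4 kb for all protein-coding genes. Ift172, Cep68 and Bbs4 had several of these peaks and no peak on their own strand. Ift172 held 3, of 876, 74 and 1932 bases, Cep68 held 2, of 1519 and 1186 bases, and Bbs4 held 2, of 441 and 618 bases, beside 1 of 2093 bases in the gene Adpgk. A further antisense peak lay in Ift88os, the transcript annotated opposite to Ift88, and was 207 bases wide.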
